A study of Mus musculus with 6 samples.

Results

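The genes that detect foreign RNA and the genes that interferon switches on were examined in C2C12 cells, a mouse skeletal muscle line, after siRNA against Cd36 (siCD36) or a negative control siRNA (siCont). The 36 genes were taken by symbol from the deposited gene table, and all 36 were found among its 55450 genes. Of these, 20 averaged at least 1 FPKM (fragments scaled to transcript length and library size) over the 6 libraries and belonged to the 11796 genes that were tested. The other 16 lay below that filter. The comparison asked whether the siRNA groups differed in the innate response to transfected RNA.

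The study examined how loss of Cd36, a membrane protein that takes up long-chain fatty acids, affects insulin signalling in muscle cells. RNA was sequenced from 3 siCD36 and 3 siCont libraries, described by the study among its experiments without palmitic acid. Cells of both groups were transfected with siRNA at 20 nM by the lipid reagent RNAiMAX and were used 72 h later, so that both groups had received short double-stranded RNA. Cells without siRNA were not analysed here, and the siCont values are therefore no baseline for transfection itself. The methods name 2 duplexes against Cd36, and the labels do not say which of them each library received. The labels give the cell type as myoblast, the strain as C57BL/6 and the tissue as skeletal muscle. The study calls the cells differentiated myotubes, names C57BL/6 only for its diet-fed mice and gives no strain for the cell line. The labels do not say whether the 3 libraries of a group came from separate cultures. The p-values therefore reflect only how these libraries vary, which may be technical.

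Cells recognise foreign RNA through cytosolic helicases of the RIG-I family, through Toll-like receptors in endosomes and through kinases and enzymes that bind double-stranded RNA. The helicases signal through the mitochondrial adaptor Mavs to the transcription factors Irf3 and Irf7, which turn on type I interferon. Secreted interferon then acts through its receptor and a complex that includes Stat2 and Irf9, which binds the interferon-stimulated response element and raises a large set of antiviral genes. Muscle cells possess this pathway, and long double-stranded RNA is its classic trigger, whereas short siRNA duplexes trigger it less readily.

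The libraries held between 56907806 and 71878709 counts, of which 99.1% to 99.3% fell in tested genes, and 3 counts corresponded to 0.0412 to 0.0525 CPM (counts relative to the TMM-corrected library size). Cd36 itself stood at 0.578, 0.460 and 0.412 CPM in the siCD36 libraries and at 17.7, 18.8 and 19.2 CPM in the siCont libraries, a log2 fold change of -5.26 (SE 0.17, adjusted p = 0.000295, Benjamini-Hochberg adjustment of edgeR's quasi-likelihood p). Myog, a transcription factor of differentiating muscle, was listed at 387 to 442 FPKM in the 6 libraries, and all 10 myotube markers were above the filter. Of the 8 macrophage and leukocyte markers Adgre1 had no count in any library and Ptprc had 8 counts in a single siCont library, while the others had 36 to 3462 counts over the 6 libraries and 1, Cd14, was above the filter. Over all genes, 260 were higher and 361 lower with siCD36, and leaving out any of the 6 libraries moved these counts by over 1.5 times, from 5 and 15 without siCD36 replicate 2 to 431 and 650 without siCD36 replicate 1.

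Many interferon-stimulated genes carry the response element near their start, and the stretches shown here let the sequence be read beside the levels given further on. Promoters of 29 of the 36 genes were found in the RefSeq table for GRCm38.p6, each spanning 250 bases before to 50 bases after the start of the gene. The letters searched were TTTC, any 2 bases and TTTC, on either strand, with overlapping copies counted separately. They were present in 13 of these 29 promoters (44.8%) and in 1079 of 27025 genes of the table (3.99%). With a G required before the first TTTC, 10 of 29 (34.5%) and 0.944% of all genes held them. Shown 5′ to 3′ on the strand of the gene, with the element in capitals, are the stretches of 7 genes that range from no count at all to 291 FPKM. They lie upstream of Ifit3 at chr19:34583353-34583436 and Ifit1 at chr19:34640765-34640833 on the plus strand, Isg15 at chr4:156200855-156200916 and Oas1a at chr5:120907526-120907565 on the minus strand, Rsad2 at chr12:26456543-26456592 and Ifitm2 at chr7:140955978-140956027 on the minus strand, and B2m at chr2:122147528-122147577 on the plus strand.
Ifit3: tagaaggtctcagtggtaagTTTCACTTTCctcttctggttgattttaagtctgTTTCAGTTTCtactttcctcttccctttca
Ifit1: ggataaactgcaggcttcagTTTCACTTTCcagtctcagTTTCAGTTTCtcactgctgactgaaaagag
Isg15: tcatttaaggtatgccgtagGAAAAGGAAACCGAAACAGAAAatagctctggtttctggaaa
Oas1a: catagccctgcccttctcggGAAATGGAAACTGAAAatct
Rsad2: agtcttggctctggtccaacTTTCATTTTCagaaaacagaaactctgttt
Ifitm2: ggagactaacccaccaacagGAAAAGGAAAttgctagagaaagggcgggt
B2m: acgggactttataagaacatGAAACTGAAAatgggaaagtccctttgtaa

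The element began 20 bases before the start of Oas1a, 46 before that of Ifitm2, 78 before that of Isg15, 104 before that of Ifit1, 120 before that of Rsad2, 139 before that of B2m and 156 before that of Ifit3. Isg15 carried 3 overlapping copies, and Ifit1, Ifit3 and Oas1a carried 2 each. The letters were found among tested and untested genes, in 9 of 19 and in 4 of 10 with a promoter in the table. A match of letters is a description and does not show that a factor binds there.

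None of the 20 tested genes passed an adjusted p of 0.05 in either direction by edgeR's quasi-likelihood test, beside 5.26% of all tested genes. At an unadjusted p under 0.05 there were 6 of 20 (30%), beside 25.4% of all tested genes. Trim25, Ifit3 and Irf3 were at lower values with siCD36 among these 6, and Eif2ak2, Parp9 and B2m at higher values. The CPM of the groups did not overlap for 5 of 20 (25%), beside 32.4% of all tested genes. DESeq2 called 3 of the 20, beside 14.2% of all tested genes, with Trim25 and Ifit3 lower and Parp9 higher, while limma on log2(FPKM + 1) or log2(FPKM + 0.1) called none, beside 4.69% and 4.78% of all tested genes, with 3 of 20 at an unadjusted p under 0.05 in either case, beside 25% of all tested genes.

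The median log2 fold change of the 20 genes was -0.08, beside 0.00277 for all tested genes, with 6 values above 0 and 14 below. The median size of the difference, without sign, was 0.18 on the log2 scale both for these genes and for all tested genes. Fold changes ran from -0.93 for Trim25 to 0.43 for Parp9. The 95% intervals stayed within a log2 difference of 1 in either direction for 16 of the 20 genes and within 0.5 for 12. Those that reached further were Trim25, Ifit3, Adar and Isg15, with limits between -1.48 and 0.66. A p that misses the threshold does not show that the groups were alike, and these intervals give the sizes that the data leave possible.

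**Figure D1:**
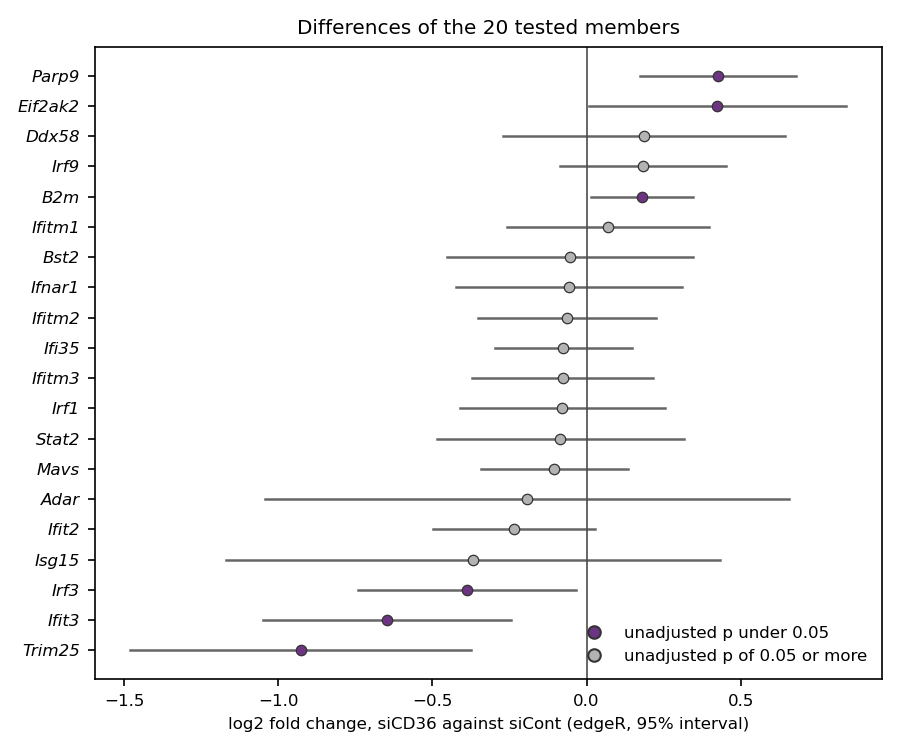
Log2 fold change of siCD36 against siCont for the 20 tested genes, from edgeR, with points for the estimates, bars for 95% intervals and the vertical line at no difference. Purple marks the 6 genes with an unadjusted p under 0.05, and none of the 20 passed the adjusted threshold.

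Among the RNA sensors and their adaptor, 3 of 7 genes were tested and none passed. Mavs, the mitochondrial adaptor of the helicases, was the most abundant of them, with a mean of 8.16 FPKM. It stood at 33.5, 28.3 and 27.8 CPM with siCD36 and at 32.7, 30.7 and 32.9 CPM with siCont, with overlapping groups and a log2 fold change of -0.10 (95% interval -0.34 to 0.13). Eif2ak2, the kinase PKR that binds double-stranded RNA and halts translation, stood at 16.5, 22.9 and 24.8 CPM with siCD36 and at 14.1, 17.1 and 16.6 CPM with siCont. The groups overlapped only through siCD36 replicate 1, which lay below siCont replicates 2 and 3. Its log2 fold change was 0.42 (SE 0.17, unadjusted p = 0.0474, adjusted p = 0.191), and without siCD36 replicate 1 it was 0.58 (adjusted p = 0.0461), in a fit that called 9.16% of all tested genes. Ddx58, the helicase RIG-I, had a log2 fold change of 0.19 (95% interval -0.27 to 0.64), and its CPM ran from 10.2 to 16.5 with siCD36 and from 10.5 to 12.9 with siCont.

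The other sensors were scarce. Ifih1, the helicase MDA5, had 81, 232 and 368 counts with siCD36 and 84, 155 and 194 counts with siCont, at a mean of 0.309 FPKM. Its lowest and highest libraries within a group lay further apart than the groups, 4.10-fold with siCD36 and 2.30-fold with siCont. Tlr3, the endosomal receptor for double-stranded RNA, was at 0.157 to 0.362 FPKM in all libraries, and Dhx58, the helicase LGP2, which modulates the other helicases, at 0.103 to 0.244 FPKM. Zbp1, a sensor of left-handed nucleic acids, was nearest to the filter among them, with a mean of 0.766 FPKM, and its counts ran from 194 to 300 with siCD36 and from 143 to 173 with siCont.

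Of the receptor, the transcription factors and the regulators, 7 of 9 genes were tested and none passed. The group held the largest difference of the list, that of Trim25, a ubiquitin ligase that in human cells attaches ubiquitin to RIG-I. Trim25 (ENSMUSG00000000275, chr11:88999376-89020293, plus strand, GRCm38) stood at 23.5, 12.1 and 17.1 CPM with siCD36 and at 33.3, 33.1 and 33.8 CPM with siCont. Every siCD36 library lay below every siCont library, and the siCD36 libraries differed 1.94-fold among themselves, the siCont libraries 1.02-fold. The fitted level with siCD36 was 0.526 of that with siCont, a log2 fold change of -0.93 (95% interval -1.48 to -0.37, unadjusted p = 0.00585, adjusted p = 0.0732), which missed the threshold. The adjusted p was 0.00131 in DESeq2, 0.0255 without siCD36 replicate 1 and 0.134 to 0.192 on leaving out any other single library.

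Irf3, a factor that the sensors activate, stood at 23.2, 22.5 and 20.3 CPM with siCD36 and at 23.03, 32.2 and 31.1 CPM with siCont. The groups overlapped through siCD36 replicate 1, which lay just above siCont replicate 1, and the other siCD36 libraries lay below every siCont library. The log2 fold change was -0.39 (95% interval -0.74 to -0.03, unadjusted p = 0.0361, adjusted p = 0.166). Irf3 overlaps Bcl2l12 on the other strand, a gene with a mean of 360 counts beside 1600 for Irf3, and reads from the shared stretch cannot be told apart without strand.

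Irf1, an interferon-induced activator of many of the same targets, was the most abundant gene of this role, with a mean of 12.0 FPKM. It stood at 48.3, 52.2 and 56.5 CPM with siCD36 and at 46.1, 54.7 and 65.0 CPM with siCont. The siCD36 values all lay inside the siCont range, and the log2 fold change was -0.08 (95% interval -0.41 to 0.25). Ifnar1, a chain of the type I interferon receptor, had a log2 fold change of -0.06 (95% interval -0.42 to 0.31). Stat2 and Irf9, which act together in the factor that interferon activates, had log2 fold changes of -0.08 and 0.18, with unadjusted p = 0.629 and 0.150. Irf9 overlaps Rnf31 on the same strand, at a mean of 731 and 723 counts.

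Adar, the enzyme that edits adenosine in double-stranded RNA, had the widest interval of the role, from -1.04 to 0.66 around a log2 fold change of -0.19. Its siCont libraries stood at 12.3, 27.3 and 33.6 CPM and enclosed the siCD36 libraries at 18.4, 20.6 and 25.1 CPM. Adar overlaps Chrnb2 on the other strand, a gene with a mean of 178 counts beside 1456 for Adar. Chrnb2 stood at 3.93, 2.98 and 4.00 CPM with siCD36 and at 2.82, 2.08 and 0.435 CPM with siCont. Irf7, the interferon-induced factor that amplifies the response, stayed below the filter with 68 to 94 counts with siCD36 and 68 to 134 with siCont. It overlaps Phrf1 on the other strand, only at chr7:141262706-141262750. Phrf1 had a mean of 1998 counts and was lower with siCD36, at a log2 fold change of -0.47 (adjusted p = 0.0454 in edgeR). Usp18, a protease that removes Isg15 from proteins and damps receptor signalling, had 29, 0 and 0 counts with siCD36 and 9, 14 and 0 with siCont.

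**Figure D2:**
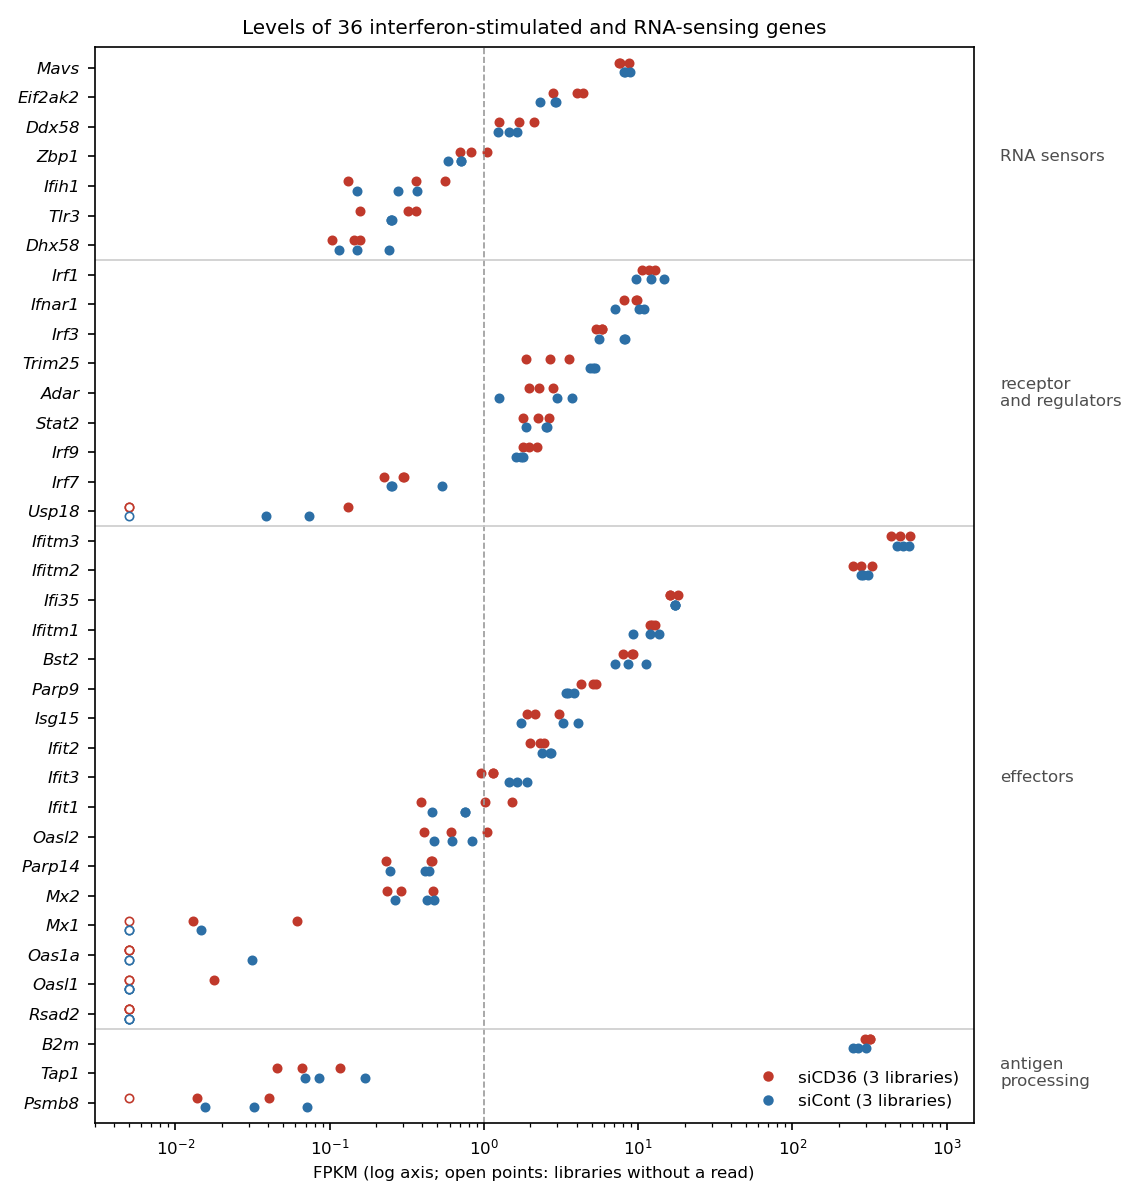
FPKM of the 36 genes in each of the 3 siCD36 (red) and 3 siCont (blue) libraries on a log axis, grouped by role, with the dashed line at the filter of 1 FPKM, which applies to the mean. Open points at the left edge are libraries without a read, and the levels run from no read for Rsad2 to 438 to 579 FPKM for Ifitm3.

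Of the antiviral effectors, 9 of 17 genes were tested and none passed, with 7 log2 fold changes below 0 and 2 above. Their levels differed more between genes than between groups. Ifitm3, a membrane protein that blocks the entry of viruses, was the most abundant of all 36 genes, at a mean of 515 FPKM, followed by B2m at 291 FPKM and Ifitm2 at 288 FPKM. Ifitm3 stood at 450, 378 and 327 CPM with siCD36 and at 385, 403 and 430 CPM with siCont. The siCD36 libraries were spread on both sides of all siCont libraries, and the log2 fold change was -0.08 (95% interval -0.37 to 0.22). Ifitm2 and Ifitm1, its neighbours on chromosome 7, had log2 fold changes of -0.06 and 0.07. The 3 genes are close paralogs, and how reads that fit several of them were assigned is unknown.

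The genes of the Ifit family encode antiviral proteins, some of which bind the ends of foreign RNA. Ifit3 (ENSMUSG00000074896, chr19:34583531-34588731, plus strand, GRCm38) had 126, 155 and 162 counts with siCD36 and 175, 194 and 212 counts with siCont. At 1.92, 2.23 and 2.23 CPM against 3.06, 3.23 and 3.69 CPM, the groups did not overlap, and the siCD36 libraries varied 1.16-fold among themselves. The log2 fold change was -0.65 (95% interval -1.05 to -0.25, unadjusted p = 0.00701, adjusted p = 0.0778), which missed the threshold, while DESeq2 gave an adjusted p of 0.0305. The edgeR fits that leave out a single library gave 0.105 to 0.216. Its near-copy Ifit3b, at 32 to 91 counts per library, could share reads with it. Ifit2 did not overlap between the groups either, at 8.98, 10.1 and 10.6 CPM with siCD36 and 11.1, 12.1 and 11.7 CPM with siCont, with a log2 fold change of -0.23 (unadjusted p = 0.0711).

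Ifit1, another of these neighbours on chromosome 19, showed no such order. It had 79, 209 and 324 counts with siCD36 and 84, 137 and 129 with siCont, and the siCD36 libraries alone differed 3.70-fold. It stayed below the filter at a mean of 0.817 FPKM. All siCD36 libraries lay below all siCont libraries for Ifit2 and Ifit3, and for Ifit1 only siCD36 replicate 1 did. The promoter stretches printed for Ifit1 and Ifit3 both hold 2 copies of the element, and the promoters of Ifit2 in the table hold none.

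Parp9, a partner of the ubiquitin ligase Dtx3l in the antiviral response, had the largest difference upwards. Parp9 (ENSMUSG00000022906, chr16:35938470-35972605, plus strand, GRCm38) stood at 23.9, 27.6 and 28.8 CPM with siCD36 and at 20.3, 18.7 and 20.7 CPM with siCont, and the groups did not overlap. The log2 fold change was 0.43 (95% interval 0.17 to 0.68, unadjusted p = 0.00566, adjusted p = 0.0727), which missed the threshold. DESeq2 gave an adjusted p of 0.00900, and leaving out siCD36 replicate 1 gave 0.0372 in edgeR. Leaving out any other single library gave 0.133 to 0.225. Parp9 overlaps Dtx3l on the other strand, which stood at 22.8, 25.0 and 29.4 CPM with siCD36 and 22.7, 22.0 and 21.6 CPM with siCont, with a log2 fold change of 0.22 (unadjusted p = 0.0997). Without strand, reads of the stretch that Parp9 and Dtx3l share cannot be told apart.

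**Figure D3:**
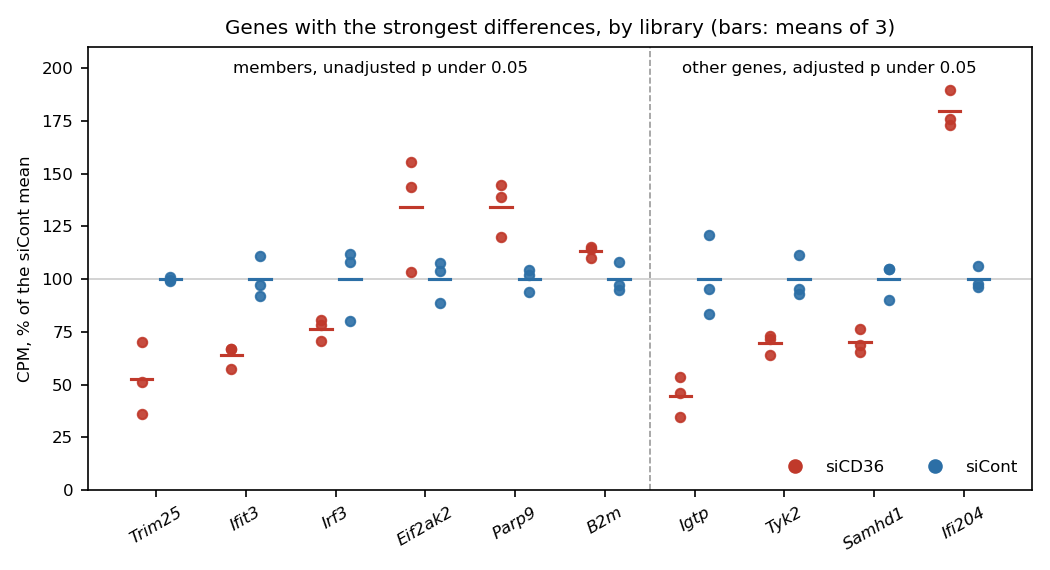
CPM in each library as a percentage of the siCont mean, with points for libraries and bars for the means of 3, for the 6 listed genes with an unadjusted p under 0.05 (left) and the 4 other pathway genes with an adjusted p under 0.05 (right). Trim25 lay at 36.2% to 70.4% of the siCont mean with siCD36, and Ifi204 at 173% to 190%.

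Isg15, the ubiquitin-like protein that is joined to newly made proteins, had 109, 126 and 187 counts with siCD36 and 90, 168 and 197 with siCont. The groups overlapped, and the interval of its log2 fold change of -0.37 ran from -1.17 to 0.43. Ifi35, Bst2 (tetherin, which holds budding virus at the membrane) and the tested genes of the Ifitm family had log2 fold changes between -0.08 and 0.07. Of the effectors that interferon raises steeply in many cells, Isg15, Ifit2 and Ifit3 were above the filter, at means of 2.70, 2.42 and 1.37 FPKM. Others were nearly silent in both groups. Rsad2, the antiviral enzyme viperin, had no count in any library. Oas1a, an oligoadenylate synthetase, had 4 counts in siCont replicate 3 and none elsewhere, and Oasl1, a relative without that activity that in mice restrains Irf7, had 4 in siCD36 replicate 3 and none elsewhere. Mx1, a GTPase that traps viral particles, had 27 counts over all 6 libraries. Oasl2, the GTPase Mx2 and Parp14, which modifies proteins with ADP-ribose, were at mean levels of 0.668, 0.362 and 0.375 FPKM, and their groups overlapped.

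The promoters of Rsad2 and Oas1a hold the element, as does that of Ifitm2, whose RNA stood at 247 to 329 FPKM. A count of 0 allows up to 3 counts, that is, up to 0.0525 CPM in the shallowest scaled library, for counting error only. In a fit of all 26215 genes with any count, which included 15 of the 16 genes below the filter, none of the 15 was at an unadjusted p under 0.05 in edgeR and the smallest was 0.161, beside 15% of all genes at an unadjusted p under 0.05 in that fit and 1.25% at an adjusted p under 0.05.

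Of the genes of antigen processing only B2m, the light chain of class I molecules, was tested. B2m (ENSMUSG00000060802, chr2:122147686-122153083, plus strand, GRCm38) stood at 292, 306 and 303 CPM with siCD36 and at 252, 258 and 287 CPM with siCont, and the groups did not overlap. The log2 fold change was 0.18 (95% interval 0.01 to 0.35, unadjusted p = 0.0382, adjusted p = 0.171), a small difference that missed the threshold. Tap1, a chain of the peptide transporter, had 19 to 52 counts with siCD36 and 26 to 61 with siCont, and Psmb8, a subunit of the immunoproteasome, at most 17 counts in any library.

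The libraries of a group also differed among themselves. Of the 29 genes that averaged at least 0.1 FPKM, 15 (51.7%) had their lowest CPM in replicate 1 in both groups, beside 18.2% of the 17400 genes of the table at that level. Among the tested genes the shares were 55% of 20 and 18.4% of 11796. The 15 were Ifih1, Ddx58, Eif2ak2, Ifnar1, Stat2, Irf1, Adar, Isg15, Ifit1, Ifit2, Ifit3, Oasl2, Bst2, Parp14 and B2m. They include 9 of the 11 genes at that level whose promoter held the element, 5 of the 13 whose promoter did not, and 1 of 5 without a promoter found. The shares over all genes with and without the element were not computed, and a link between the element and this order was not tested. By contrast replicate 1 was highest in both groups for 1 of the 29 genes, beside 17.6% of the 17400. Replicate 3 was highest in both groups for 8 of the 29 (27.6%), beside 14.0% of the 17400. The spread was widest for Ifih1 and Ifit1 with siCD36 and for Adar with siCont, where the highest library was 2.74 times the lowest.

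Replicate 1 had the fewest counts of the siCD36 libraries, 67048354, and the most of the siCont libraries, 60566530. The TMM factors of replicate 1 were the lowest of each group, 0.988 and 0.951 against 1.00 to 1.02 in the other 4 libraries, so that its scaled library size was the smallest in both groups. The part of depth and scaling in the pattern was not tested. The labels do not say that replicates with the same number share a culture or a day.

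**Figure D4:**
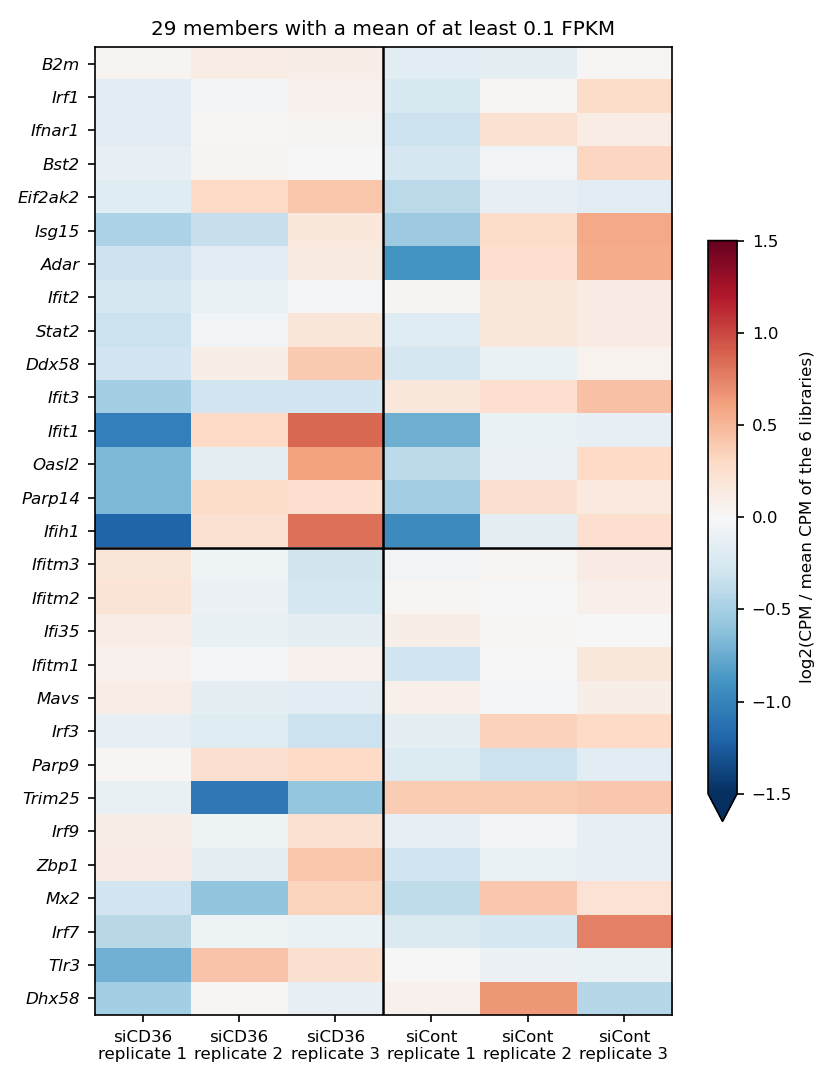
Log2 ratio of the CPM in each library to the mean of the 6 libraries for the 29 genes that averaged at least 0.1 FPKM, in blue for below and red for above that mean. The upper 15 genes were lowest in replicate 1 in both groups, and the vertical line separates siCD36 from siCont.

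Other genes of the pathway were counted by lists. None of 21 interferon genes reached the filter, 16 of them had no count in any library, among them Ifnb1, and 18 had fewer than 10 counts in every library. Ifng, the type II interferon, had 50, 37 and 52 counts with siCD36 and 29, 3 and 10 with siCont, and Ifnz had 4 to 24 counts. The groups did not overlap for Ifng, at an unadjusted p of 0.0932 and an adjusted p of 0.421 in the edgeR fit without a filter. In that fit 15% of all genes were at an unadjusted p under 0.05.

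Of the other receptor and JAK-STAT genes, 16 were tested, none was higher and 1 was lower. This was Tyk2, the kinase bound to Ifnar1, at 23.3, 26.4 and 26.0 CPM with siCD36 and 40.5, 33.8 and 34.6 CPM with siCont. Its groups did not overlap, its log2 fold change was -0.52 (SE 0.10, adjusted p = 0.0434), and it missed the threshold in each of the 6 fits that leave out a library and in both limma fits. Of 26 tested genes of other nucleic acid sensing, none was higher and 1 was lower. Samhd1, an enzyme that degrades the building blocks of DNA, stood at 64.5, 58.0 and 55.3 CPM with siCD36 and 88.6, 88.4 and 76.3 CPM with siCont, without overlap, a log2 fold change of -0.51 (SE 0.09, adjusted p = 0.0362) that kept the threshold in 1 of the 6 fits that leave out a library, the fit without siCD36 replicate 1.

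Of 65 other interferon-stimulated genes, 27 were tested, 1 was higher and 1 was lower. Ifi204, a nuclear protein of the interferon-inducible p200 family that binds DNA, rose from 40.8, 37.0 and 37.6 CPM with siCont to 66.6, 72.9 and 67.6 CPM with siCD36. Its log2 fold change was 0.84 (SE 0.08, adjusted p = 0.0115), and it kept the threshold in 4 of 6 fits, with 0.0620 without siCD36 replicate 2 and 0.0591 without siCont replicate 2. For its paralog Ifi202b the log2 fold change was 0.38 (adjusted p = 0.0960), and reads that fit both could have been split between them. Igtp, a GTPase induced by interferon gamma, fell from 9.33, 10.7 and 13.5 CPM to 3.86, 6.00 and 5.12 CPM, a log2 fold change of -1.16 (SE 0.22, adjusted p = 0.0369). It kept the threshold in 1 of 6 fits, the fit without siCD36 replicate 1, and it overlaps its paralog Irgm2 on the same strand. Irgm2 lay below the filter. Its log2 fold change was -0.70 in the edgeR fit without a filter (unadjusted p = 0.0163, adjusted p = 0.196). How reads that fit both Igtp and Irgm2 were assigned is unknown. None of the 14 tested genes of other antigen processing passed in edgeR, with 3 at an unadjusted p under 0.05.

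Each of these lists had a median log2 fold change between 0.03 and 0.06, beside -0.08 for the 20 genes examined here. The share called was 1 of 16, 1 of 26, 2 of 27 and 0 of 14, beside 5.26% of all tested genes.

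Of the 10 myotube markers 1 was lower with siCD36 and none higher. Their log2 fold changes were below 0 for 7 and above 0 for 3, with a median of -0.12. Of 3 tested myoblast and proliferation markers 1 was higher, with all 3 log2 fold changes above 0 and a median of 0.93. Myh3, the embryonic myosin heavy chain, was lower with siCD36 at a log2 fold change of -0.62 (adjusted p = 0.0210), and Myf5, a factor of myoblasts, was higher at 0.93 (adjusted p = 0.0274), each keeping the threshold in 2 of 6 fits without a single library. The summed FPKM of the 10 myotube markers ran from 8805 to 11948 with siCD36 and from 12002 to 14665 with siCont, and that of 6 myoblast and proliferation markers from 11.1 to 14.3 and from 6.48 to 8.26. The 8 macrophage and leukocyte markers summed to 5.76 to 8.52 FPKM and 5.47 to 7.35 FPKM. The part of these differences in the values of Trim25, Ifit3, Parp9 or Ifi204 was not tested, and in these bulk samples fewer cells of a kind and less RNA per cell cannot be told apart.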

How the data were processed

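RNA of 3 siCD36 and 3 siCont libraries was enriched by oligo(dT) and sequenced as paired reads. Per the study's methods, the authors aligned the reads by HISAT 2.0 and obtained FPKM from StringTie. The deposited table holds gene counts and FPKM values for each library, made by the authors. FPKM is 0.0001 where a gene has no reads. The sources used here do not name the counting tool, its use of strand or the genome build, and 33 of 36 genes had the same start and end as in GENCODE M21 (GRCm38).

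Counts were tested with edgeR 4.0.16 (TMM, glmQLFit, glmQLFTest) in R 4.3.3 over 11796 genes that averaged at least 1 FPKM, with Benjamini-Hochberg adjustment at 0.05. The fit was tested on simulated data. DESeq2 1.42.0, limma 3.58.1 on log2(FPKM + 1) and log2(FPKM + 0.1), other scalings and filters, a replicate block and leaving out each library were the alternatives. Genes with an unadjusted p under 0.05, the most abundant gene of each role and, of other lists, genes past the threshold were named with their values. The 36 genes and the lists were chosen with earlier results of these data known. Of 36 other nucleic acid sensing genes, 35 were found by symbol. Promoters came from RefSeq (GRCm38.p6).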

Additional observations from a re-analysis of the deposited data

How the results depend on the processing

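The 20 tested genes gave 0 calls in either direction under both other scalings, limma and the replicate block. The other filters also gave 0 calls, but over other sets of the listed genes. These were 29 genes at 0.1 FPKM, 10 at 5 FPKM and 35 without a filter. The filter at 5 FPKM left out Trim25, Ifit3, Parp9 and Eif2ak2. DESeq2 gave 1 higher and 2 lower, and leaving out a library gave 0 to 2 higher and 0 to 1 lower, the calls coming without siCD36 replicate 1 (Trim25 lower, Parp9 and Eif2ak2 higher). Of 290 values of single genes under the alternatives, 275 kept their direction and side of the threshold, 6 passed it and 9 changed sign, the last in 8 genes and all on leaving out a library. These log2 fold changes ran from -0.20 to 0.0581 for Ifnar1, -0.21 to 0.0355 for Stat2, -0.19 to 0.0546 for Irf1, -0.51 to 0.110 for Adar, -0.17 to 0.117 for Bst2, -0.0472 to 0.18 for Ifitm1, -0.20 to 0.0383 for Ifitm2 and -0.20 to 0.0269 for Ifitm3. Over all tested genes, the calls were 116 higher and 211 lower without a filter, 768 and 909 with DESeq2, and 5 to 431 and 15 to 650 on leaving out a library, and the cause was not tested. The replicate block gave 56 higher and 143 lower. Over all tested genes, deviations of same-numbered libraries correlated at 0.143, -0.0341 and 0.0448, and those of differently numbered libraries at -0.120 to 0.0933. Replicate 1 of each group correlated best with its own number, but not every library did. Weak correlations over all genes cannot decide whether same-numbered libraries were paired, and the labels do not say. The median of the listed genes in each fit, 20 except under the other filters, stayed below 0 throughout. It ran from -0.14 without siCont replicate 1 to -0.0227 without siCont replicate 3. Beyond leaving out a library, the calls were lost for Tyk2 without a filter (adjusted p = 0.0701) and in limma (0.0584 and 0.0582), for Samhd1 without a filter (0.0598), and for Igtp without a filter (0.0589) and with library totals (0.0502). The replicate block lost those of Tyk2 (0.0960), Samhd1 (0.0528), Igtp (0.0561) and Myf5 (0.0596), while Ifi204 and Myh3 kept theirs in all 9 of these alternatives. Of the 16 genes below the filter, Rsad2 had no count and Oas1a, Oasl1, Mx1, Psmb8 and Usp18 had 4 to 52 in all, and differences of these 6 were not detectable at this depth. The other 10 had 220 to 1869 counts and standard errors of 0.20 to 0.52 on the log2 scale.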
